A study of Mus musculus with 10 samples.

Results

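The genes described here were the 9 members of a set around the transcription factor Nrf2 that defend cells against oxidants: Nfe2l2, which encodes Nrf2, and its target genes Nqo1, Gclc, Gclm, Txnrd1, Srxn1, Hmox1, Gpx2 and Prdx1. They were chosen by gene name, and every probe that the newer annotation of the array gave to one of these names was kept. That left 14 of 41143 probes, and the 9 genes stood among 19045 genes tested. All 14 probes were well above background on all 10 arrays, so that each of the 9 genes passed the filter on dim probes.

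RNA from the ileum, the last stretch of the small intestine, of C57BL/6 mice aged 6 to 8 weeks was hybridised to one-colour Agilent arrays, 2 for each of 5 groups. TetON-Sox2 mice, which carry Sox2 under doxycycline (DOX) control, were left untreated (Sox2 -DOX) or given DOX (Sox2 +DOX). TetON-Oct4 mice (Oct4 +DOX), mice with both transgenes (TetON-Sox2 X TetON-Oct4, here Sox2xOct4 +DOX) and rtTA controls without the TetOP-Sox2 transgene (rtTA +DOX) were also given DOX. DOX was drunk at 2 mg/ml for 2 days with 1% sucrose, so that the comparison with Sox2 -DOX holds transgene, DOX and sucrose together. Among the comparisons with rtTA +DOX, that of Sox2xOct4 +DOX lies within a slide. Those of Sox2 +DOX and Oct4 +DOX hold the transgene together with the slide and, wholly or in part, with sex (next paragraph). The promoter that drove rtTA was not given in the sources used here, and the tissue was whole ileum, so fewer cells of a type and less RNA per cell cannot be told apart. Nothing in the labels says whether replicates were separate animals. The 2 Oct4 +DOX arrays differed in the Y-linked gene Eif2s3y (next paragraph), so they were not repeats of 1 mouse. For the other groups this is not known. The p-values rest on the scatter of 2 samples a group, pooled over the 5 groups, and outside Oct4 +DOX that scatter may be technical.

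The Sox2 -DOX and Sox2 +DOX arrays shared slide 1, rtTA +DOX and Sox2xOct4 +DOX shared slide 2, and Oct4 +DOX lay alone on slide 3, where slide and group cannot be told apart. Pou5f1, the gene of Oct4, was well above background in the Oct4 +DOX and Sox2xOct4 +DOX arrays only, on both arrays of each. The Sox2 probe was not well above background on any array, so it checked nothing, and the Sox21 gene stood at 0.44 to 3.33 (levels here are log2 signals less the 75th percentile of their array) in the 4 arrays with Sox2 induced and at -4.92 to -3.28 in the other 6. All 6 ileal epithelium markers, Vil1, Cdx2, Fabp6, Slc10a2, Cdh17 and Epcam, were well above background in every group. Eif2s3y, on the Y chromosome, was well above background on the 4 arrays of slide 1, on none of slide 2 and on 1 of the 2 Oct4 +DOX arrays. The comparisons within slides 1 and 2 were thus between arrays of like sex, and those between slides 1 and 2 were not. Oct4 +DOX mixed the sexes: replicate 1 had Eif2s3y, whereas replicate 2 lacked it, as both rtTA +DOX arrays did.

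In unstressed cells the adaptor Keap1 holds Nrf2 and hands it to a ubiquitin ligase for destruction. Oxidants and electrophiles modify Keap1, Nrf2 then enters the nucleus with a small Maf protein, and the pair binds antioxidant response elements near genes for glutathione synthesis, the thioredoxin and peroxiredoxin cycle, quinone reduction and haem breakdown. Nrf2 is controlled mainly through the stability of its protein, which an RNA array does not read. In the gut these enzymes meet dietary electrophiles, bile and products of bacteria.

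Because the set is defined by a factor that binds near its targets, the 250 bases before the RefSeq start site were read for the members with an entry (build GRCm38.p6). Of the 9 members 7 were matched, with 9 windows, and Hmox1 and Gclc were not. The antioxidant response element was searched as TGACNNNGC and the AP-1 site as TGANTCA, both on both strands, and the letters of the 2 motifs can overlap. Of 32851 such windows of mouse genes 10.2% held the first and 6.75% the second. The windows of 3 members are printed 5′ to 3′ along the gene, in lower case with matches in capitals: that of Srxn1, the only member called, that of Prdx1, which encodes the substrate of the Srxn1 enzyme and also holds 2 AP-1 matches, and that of Nqo1, which holds neither motif. The windows are chr2:152105274-152105523 on the plus strand, chr4:116685349-116685598 on the plus strand and chr8:107403206-107403455 on the minus strand.
Srxn1: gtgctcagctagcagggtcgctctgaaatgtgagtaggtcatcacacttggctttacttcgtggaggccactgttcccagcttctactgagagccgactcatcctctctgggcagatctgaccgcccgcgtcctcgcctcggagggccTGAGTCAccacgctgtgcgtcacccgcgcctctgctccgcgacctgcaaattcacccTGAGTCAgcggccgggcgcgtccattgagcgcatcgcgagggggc
Prdx1: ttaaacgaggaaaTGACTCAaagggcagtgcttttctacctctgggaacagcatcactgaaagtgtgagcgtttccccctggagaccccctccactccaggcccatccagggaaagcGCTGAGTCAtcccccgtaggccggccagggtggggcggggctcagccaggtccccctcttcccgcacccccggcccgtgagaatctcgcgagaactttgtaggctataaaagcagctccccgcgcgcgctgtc
Nqo1: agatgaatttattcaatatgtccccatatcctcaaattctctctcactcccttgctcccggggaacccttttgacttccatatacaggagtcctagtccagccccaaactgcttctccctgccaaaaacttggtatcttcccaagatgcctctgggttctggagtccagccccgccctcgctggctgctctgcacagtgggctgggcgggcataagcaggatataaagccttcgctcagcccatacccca
In Srxn1 both capital runs are AP-1 matches, TGAGTCA, at 102 to 96 and 45 to 39 bases before the start. No match to the antioxidant response element as searched was found in this window. The second run with the letters after it, TGAGTCAgc, differs from the searched TGACNNNGC only by a G in place of the fixed C after TGA. The search could therefore not count it, and looser forms of the element were not searched. Prdx1 held an AP-1 match at 237 to 231 bases before the start and, at 133 to 125, an antioxidant response element on the minus strand that overlaps the second AP-1 match. Nfe2l2, Gclm and 1 of the 3 Txnrd1 windows held 1 antioxidant response element each, and the Gpx2 window held neither motif. These are matches of letters and not measured sites.

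Of the 9 genes, Srxn1 passed the test and the others did not, which does not show that they were unchanged. On its brightest probe Srxn1 RNA fell about 3-fold when Sox2 was induced and between 4- and 5-fold when Sox2 and Oct4 were induced together, and its log2 change with Oct4 alone was -0.03 (not called). Its other probes fell 3.78- and 3.94-fold with Sox2 and 6.3- and 5.98-fold with both factors. With Oct4 alone they gave log2 changes of -0.62 and -0.43 (not called). Hmox1 was higher and Nqo1 lower than the controls in several comparisons, each short of the threshold. Genes were tested with limma and called at a Benjamini-Hochberg adjusted p under 0.05 over all 19045 genes. At that threshold 1 of the 9 was called in Sox2 +DOX against Sox2 -DOX, where 7.83% of all genes were called. Again 1 of 9 was called in Sox2xOct4 +DOX against rtTA +DOX, where the share over all genes was 6.35%, and 1 of 9 in Sox2 +DOX against rtTA +DOX, where it was 8.38%. None of the 9 was called in Oct4 +DOX against rtTA +DOX, where 1.01% of all genes were. A count of 1 in 9 is near the background in each case. Between the 2 control groups, rtTA +DOX and Sox2 -DOX, limma called 0 genes of all tested (1068 had an unadjusted p under 0.05), and no member had one.

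**Figure D1:**
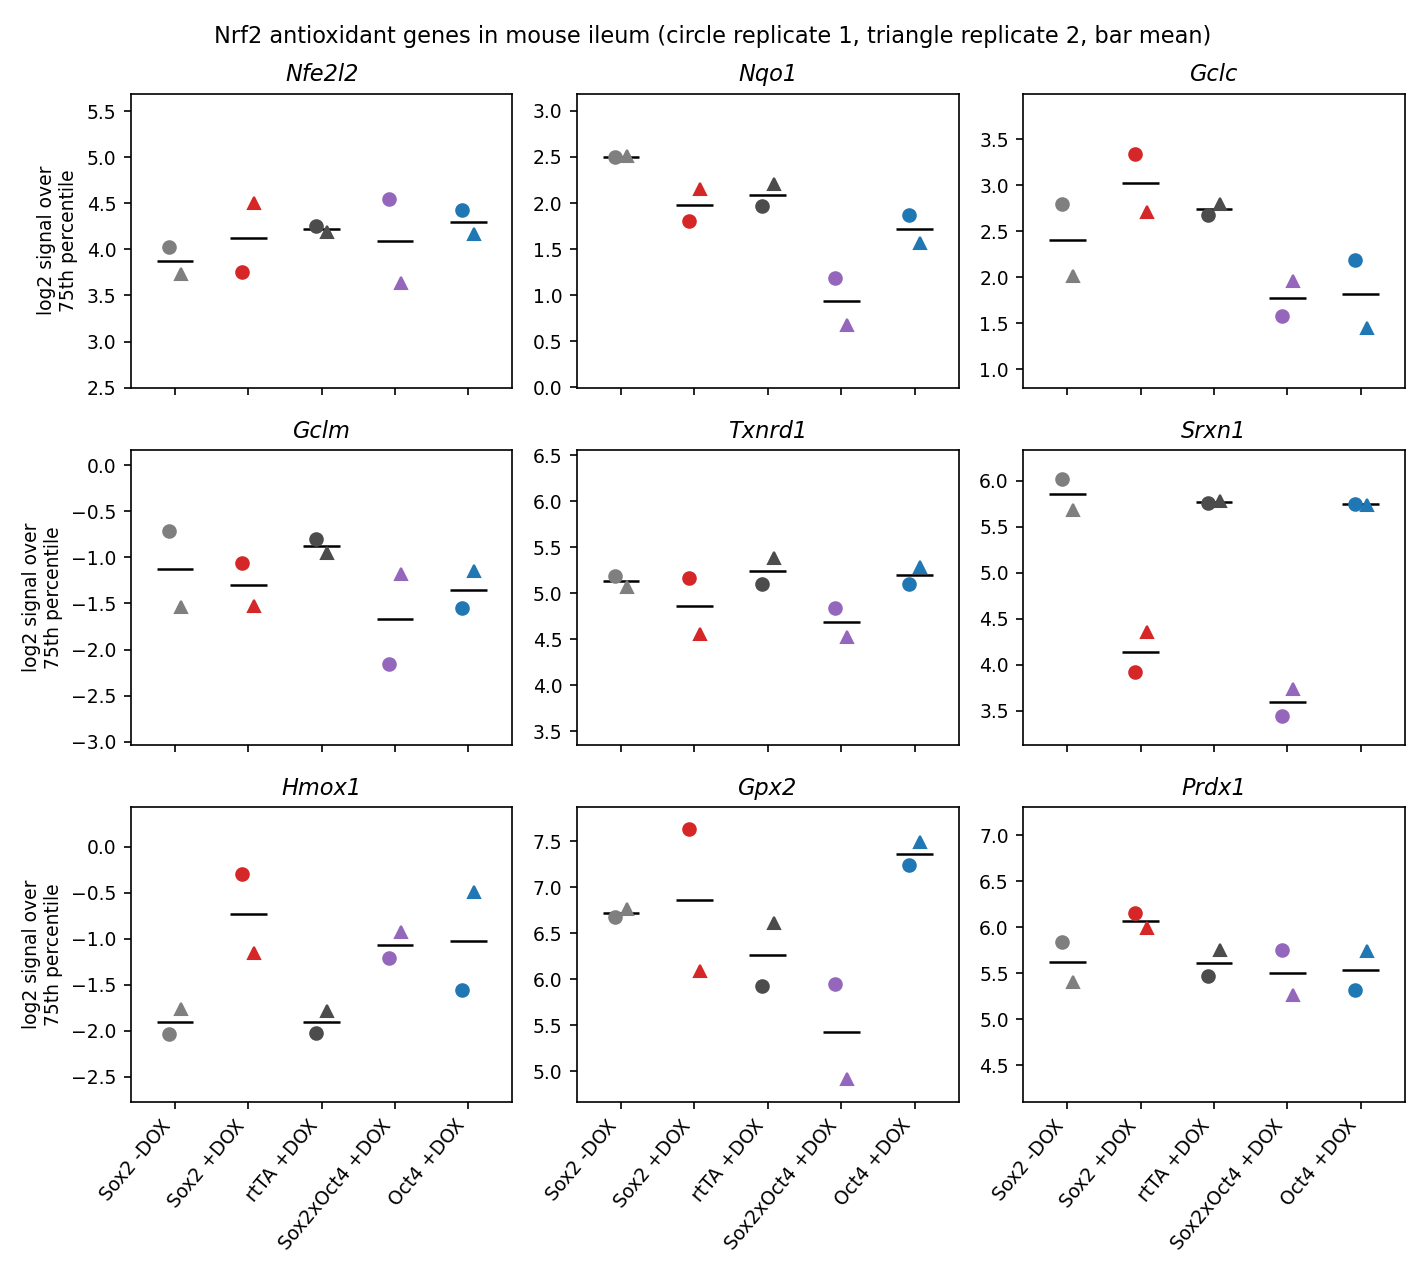
Level of each of the 9 genes on every array, as log2 signal less the 75th percentile of that array, with 1 circle and 1 triangle for the 2 replicates and a bar for the group mean (the height of all panels is the same number of log2 units, but their ranges differ). In the Srxn1 panel the Sox2 +DOX and Sox2xOct4 +DOX arrays sit between 3.44 and 4.36 and the other 6 arrays between 5.68 and 6.02.

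Nfe2l2 came first as the regulator itself. Its level was 4.03 and 3.73 in Sox2 -DOX, 3.76 and 4.50 in Sox2 +DOX, 4.26 and 4.19 in rtTA +DOX, 4.55 and 3.64 in Sox2xOct4 +DOX and 4.43 and 4.17 in Oct4 +DOX. Every group overlapped its neighbour in the order of means, and the replicates of Sox2 +DOX and Sox2xOct4 +DOX lay further apart than any 2 group means. The changes were 0.25 ± 0.39 (SE) with Sox2, -0.13 ± 0.39 with both factors and 0.08 ± 0.39 with Oct4 on the log2 scale, with 95% intervals from -0.64 to 1.14, from -1.01 to 0.76 and from -0.81 to 0.96.

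Nfe2l2 had 4 probes. The 2 designed on its reference transcript, at chr2:75476553-75476612 and chr2:75476699-75476758 (NCBI36, mm8), are near each other, and the other pair, designed on the cDNA clones AK029360 and AK031731, lies further along the chromosome at chr2:75492729-75492788 and chr2:75501533-75501592. None of the 4 was called in any comparison. They did not all point one way: with Sox2 against the untreated mice the first probe gave 0.25 ± 0.39 and the AK031731 probe -0.49 ± 0.45, and in Oct4 +DOX against rtTA +DOX the AK029360 probe gave -0.58 ± 0.39 where the first gave 0.08 ± 0.39. With the mean over the 4 probes the Oct4 change was -0.22.

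The genes that act on Nrf2 were read from a list of 15. Limma called 0 higher and 1 lower with Sox2 against Sox2 -DOX, none with both factors (3 had an unadjusted p under 0.05), none with Oct4 (0 unadjusted), and 1 higher and 1 lower with Sox2 against rtTA +DOX. Of all genes 7.83% were called in the first comparison and 8.38% in the last. Beside these shares 1 of 15 was called in the first and 2 of 15 in the last, counts too small to set the list apart. The gene that fell was Bach2, a repressor that binds with small Maf proteins to the same kind of element, with changes of -1.98 ± 0.33 (adjusted p = 0.014) against Sox2 -DOX and of -2.27 ± 0.33 (adjusted p = 0.0082) against rtTA +DOX. Bach2 is also known from B and T lymphocytes, and the summed level of 6 T cell markers moved beside it, from 6.45 to 8.41 in Sox2 -DOX to 1.47 to 2.38 in Sox2 +DOX, and that of 5 B cell markers from 46.5 to 105 down to 22.8 to 51.6. In Oct4 +DOX, where Bach2 gave -0.75 ± 0.33 against rtTA +DOX and was not called (adjusted p = 0.38), the T cell sum was 1.62 to 1.71 against 3.12 to 6.23 and the B cell sum 17 to 17.2 against 47.8 to 52.3. In Sox2xOct4 +DOX, where Bach2 gave -0.76 ± 0.33 (adjusted p = 0.21), they were 1.85 to 2.95 and 17.9 to 25.4. Their part in the Bach2 values was not tested. The list's count against Sox2 -DOX fell to 0 when Sox2 -DOX replicate 1 or Sox2 +DOX replicate 1 was left out, and its 2 calls against rtTA +DOX fell to 0 without Sox2 +DOX replicate 1 or rtTA +DOX replicate 1 and to 1 without the other array of either group. The gene that rose against rtTA +DOX was Nfe2l3, a relative of Nfe2l2, by 1.70 ± 0.42 (adjusted p = 0.047), and against Sox2 -DOX it gave 0.91 ± 0.42 (adjusted p = 0.21). Bach1, which represses Hmox1 and is named here after its values were seen, gave -2.07 ± 0.81 with Sox2 (adjusted p = 0.15), -2.42 ± 0.81 with both factors (adjusted p = 0.12) and -1.43 ± 0.81 with Oct4 (adjusted p = 0.51), none past the threshold. Keap1 itself, also named after the fact, gave -0.68 ± 0.29 (adjusted p = 0.18), -0.30 ± 0.29 (adjusted p = 0.58) and 0.01 ± 0.29 (adjusted p = 0.99). The list's median change was -0.22 with Sox2, where that of all genes was -0.10, and -0.30 with both factors, where that of all genes was 0.07.

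Srxn1 encodes sulfiredoxin, which restores peroxiredoxins that have been over-oxidised at their active cysteine. Its level was 6.02 and 5.68 in Sox2 -DOX and 3.92 and 4.36 in Sox2 +DOX. On slide 2 it was 5.76 and 5.78 in rtTA +DOX and 3.44 and 3.74 in Sox2xOct4 +DOX. In Oct4 +DOX it was 5.75 and 5.74. All 4 arrays with Sox2 induced lay below all 6 arrays without, with a gap of more than 1 log2 unit, and the lowest 2 were those of Sox2xOct4 +DOX. In the order of group means Sox2 -DOX and rtTA +DOX overlapped, rtTA +DOX and Oct4 +DOX did not overlap but differed by only 0.03, and Sox2 +DOX lay 0.55 above Sox2xOct4 +DOX, without overlap for this probe.

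Srxn1 fell by 1.71 ± 0.29 on the log2 scale in Sox2 +DOX against Sox2 -DOX, to a level 3.27-fold lower (limma adjusted p = 0.013, 95% interval -2.36 to -1.06). In Sox2xOct4 +DOX against rtTA +DOX it fell by 2.18 ± 0.29, which is 4.52-fold (adjusted p = 0.0073, interval -2.83 to -1.52). These 2 comparisons share no array and each lies within 1 slide. Set against rtTA +DOX, Sox2 +DOX was lower by 3.09-fold (log2 change -1.63 ± 0.29, adjusted p = 0.015). That comparison reuses arrays of both others and crosses slide and sex. Oct4 +DOX differed from rtTA +DOX by -0.03 ± 0.29 (interval -0.68 to 0.63, adjusted p = 0.98), and rtTA +DOX from Sox2 -DOX by -0.08 ± 0.29 (interval -0.74 to 0.57). The response with both factors was not distinguishable from that with Sox2: the difference of the 2 within-slide changes was 0.47 ± 0.40 (interval -0.46 to 1.39, adjusted p = 0.79). All genes called lower made up 4.8% with Sox2, 3.16% with both factors and 5.15% in Sox2 +DOX against rtTA +DOX.

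The call for Srxn1 rested on few arrays. It was lost against Sox2 -DOX without either Sox2 -DOX array (-1.54, adjusted p = 0.12, without replicate 1 and -1.88, adjusted p = 0.062, without replicate 2) or without Sox2 +DOX replicate 1 (-1.49, adjusted p = 0.1), and against rtTA +DOX without either rtTA +DOX array (Sox2xOct4 +DOX: -2.19 without replicate 1 and -2.16 without replicate 2, adjusted p = 0.068 and 0.054; Sox2 +DOX: -1.64 and -1.61, adjusted p = 0.11 and 0.079) or, for Sox2 +DOX, without its replicate 1 (-1.40, adjusted p = 0.11). A fit to the 4 arrays of the 2 groups alone gave adjusted p = 0.057 against Sox2 -DOX, 0.052 for Sox2 +DOX against rtTA +DOX and 0.045 for Sox2xOct4 +DOX, and the authors' normalized table gave -1.66 with adjusted p = 0.056 against Sox2 -DOX.

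Srxn1 was read by 3 probes on chromosome 2 of the mm8 build, at chr2:151800890-151800949, chr2:151800937-151800996 and chr2:151802624-151802683, all designed on NM_029688. The first and second overlap by 13 bases and so are not independent, and the third, which stands for the gene above, is apart from them. Against Sox2 -DOX the Sox2 +DOX change was -1.98 ± 0.45, -1.92 ± 0.40 and -1.71 ± 0.29 in that order. Both factors against rtTA +DOX gave -2.58 ± 0.45, -2.65 ± 0.40 and -2.18 ± 0.29. On the first probe Sox2 +DOX (0.21 and 1.04) and Sox2xOct4 +DOX (-0.24 and 0.57) overlapped, as they did on the second (0.28 and 1.01 beside -0.00 and 0.53). With the probes fitted one by one, all 3 were called by limma in both comparisons (adjusted p from 0.0079 to 0.038) and in Sox2 +DOX against rtTA +DOX (0.015 to 0.029). In Oct4 +DOX against rtTA +DOX they gave -0.43 ± 0.45, -0.62 ± 0.40 and -0.03 ± 0.29, none called.

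**Figure D2:**
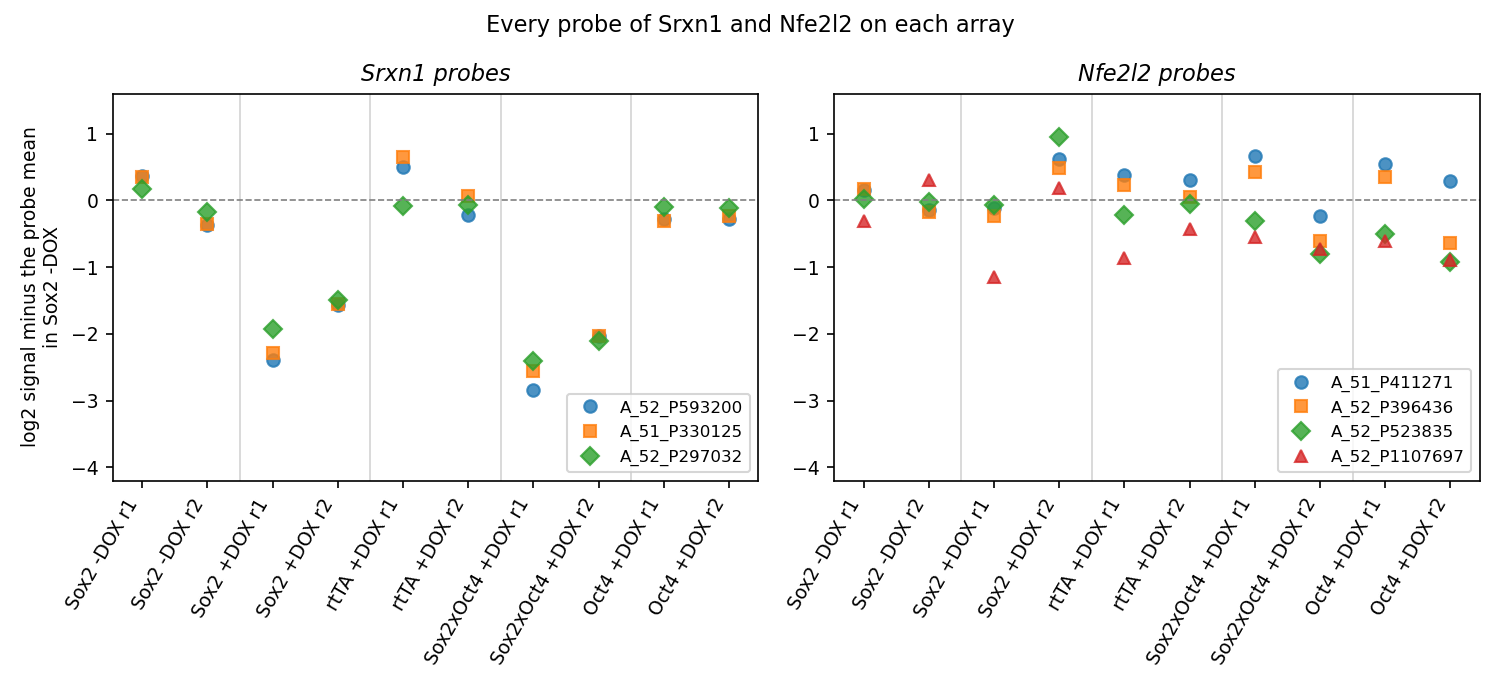
Every probe of Srxn1 (left) and Nfe2l2 (right) on each of the 10 arrays, as log2 signal minus the mean of that probe in Sox2 -DOX, with 1 symbol per probe. The 3 Srxn1 probes drop together in Sox2 +DOX (by -1.71 to -1.98 on average against Sox2 -DOX) and in Sox2xOct4 +DOX, whereas the 4 Nfe2l2 probes do not move together. The AK031731 probe of Nfe2l2 lies below its Sox2 -DOX mean on most other arrays (rtTA +DOX: -0.65 ± 0.45, not called).

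Markers of absorptive enterocytes were lower along with Srxn1 in Sox2 +DOX, but in Sox2xOct4 +DOX their sum was lower on replicate 1 only. The summed level of 10 enterocyte markers (linear signal over the 75th percentile) was 726 and 613 in Sox2 -DOX, 110 and 313 in Sox2 +DOX, 518 and 778 in rtTA +DOX, 252 and 667 in Sox2xOct4 +DOX and 538 and 800 in Oct4 +DOX. It was below the controls in both Sox2 +DOX arrays and in replicate 1 of Sox2xOct4 +DOX, whereas replicate 2 of Sox2xOct4 +DOX, where Srxn1 stood at 3.74, lay within the range of the controls. Limma called 3 of the 10 markers lower with Sox2 (Alpi, Mttp and Slc5a1) and 2 of the 10 with both factors (Mttp and Slc5a1). Over all genes 4.8% and 3.16% were called lower in these comparisons. The 6 ileal epithelium markers summed to 418 to 472 in Sox2 -DOX, 174 to 262 in Sox2 +DOX, 282 to 370 in rtTA +DOX and 164 to 223 in Sox2xOct4 +DOX, with none called. The part of these shifts in the Srxn1 change was not tested.

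**Figure D3:**
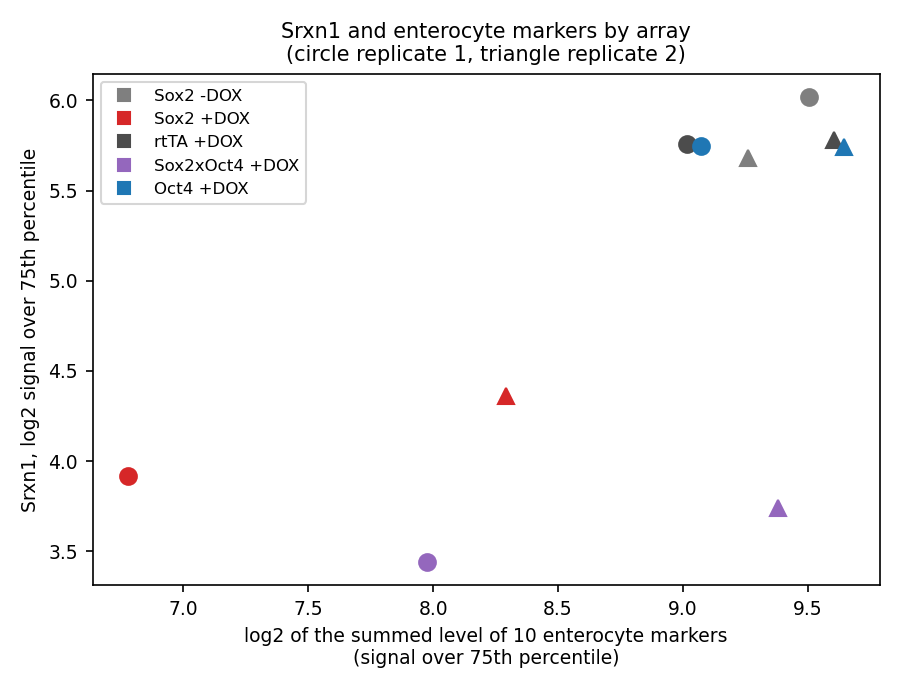
Srxn1 level (vertical, log2 signal over the 75th percentile) against the log2 of the summed level of 10 enterocyte markers (horizontal) on the 10 arrays, coloured by group, with a circle for replicate 1 and a triangle for replicate 2. The 6 arrays without induced Sox2 lie at the upper right (sums of 518 to 800), and Sox2xOct4 +DOX replicate 2 has a sum of 667 with Srxn1 at 3.74.

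The 3 genes whose levels followed Srxn1 most closely over the 10 arrays were Tmem19 (Pearson r = 0.986), Mall (r = 0.986) and Prrg2 (r = 0.984). The points of such a correlation share their arrays and fall into 2 clusters, so r mainly records that split. Mall, a membrane protein of the MAL family, differed by -2.36 with Sox2, -2.52 with both factors and 0.41 with Oct4, Tmem19 by -0.94, -1.31 and -0.22, and Prrg2 by -0.81, -1.03 and 0.05.

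Prdx1, a peroxiredoxin that reduces hydrogen peroxide and is a substrate of sulfiredoxin, did not pass the test. Its level was 5.84 and 5.40 in Sox2 -DOX, 6.15 and 5.99 in Sox2 +DOX, 5.47 and 5.75 in rtTA +DOX, 5.75 and 5.26 in Sox2xOct4 +DOX and 5.32 and 5.74 in Oct4 +DOX. Both Sox2 +DOX arrays were above all 8 others, but by little: the change was 0.45 ± 0.32 against Sox2 -DOX (adjusted p = 0.39) and 0.46 ± 0.32 against rtTA +DOX. With both factors it was -0.11 ± 0.32 and with Oct4 -0.08 ± 0.32, with overlapping arrays in both.

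Txnrd1 encodes the cytosolic thioredoxin reductase, which feeds electrons from NADPH to thioredoxin and so to the peroxiredoxins. Its level was 5.19 and 5.07 in Sox2 -DOX, 5.17 and 4.56 in Sox2 +DOX, 5.10 and 5.38 in rtTA +DOX, 4.84 and 4.53 in Sox2xOct4 +DOX and 5.10 and 5.29 in Oct4 +DOX. The Sox2xOct4 +DOX arrays were below both rtTA +DOX arrays, and the Sox2 groups overlapped. Changes were -0.27 ± 0.31 with Sox2, -0.55 ± 0.31 with both factors (adjusted p = 0.32) and -0.04 ± 0.31 with Oct4.

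Gclc and Gclm encode the catalytic and modifier subunits of glutamate-cysteine ligase, the first step of glutathione synthesis. Gclc stood at 2.79 and 2.01 in Sox2 -DOX, 3.34 and 2.71 in Sox2 +DOX, 2.68 and 2.79 in rtTA +DOX, 1.58 and 1.96 in Sox2xOct4 +DOX and 2.19 and 1.45 in Oct4 +DOX. Its values were low in both groups that carry the Oct4 transgene and did not overlap with rtTA +DOX there, and the Sox2 groups overlapped. The change was 0.63 ± 0.40 with Sox2 (adjusted p = 0.34), -0.96 ± 0.40 with both factors (unadjusted p = 0.041, adjusted p = 0.19) and -0.91 ± 0.40 with Oct4 (adjusted p = 0.38), all by limma. The Sox2 response less the response to both factors was 1.59 ± 0.56 (interval 0.29 to 2.88, unadjusted p = 0.022, adjusted p = 0.42), which did not pass the correction.

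Gclm stood at -0.71 and -1.54 in Sox2 -DOX, -1.06 and -1.53 in Sox2 +DOX, -0.80 and -0.95 in rtTA +DOX, -2.16 and -1.18 in Sox2xOct4 +DOX and -1.55 and -1.15 in Oct4 +DOX. All neighbours in the order of group means overlapped, but Sox2 +DOX, Sox2xOct4 +DOX and Oct4 +DOX each lay below both rtTA +DOX arrays. In these comparisons 63%, 52.7% and 46.3% of all genes did not overlap, in either direction. Its changes were -0.17 ± 0.43 with Sox2, -0.79 ± 0.43 with both factors (adjusted p = 0.3) and -0.47 ± 0.43 with Oct4. Its probe maps to chr3:122251278-122253913 in mm8, a span longer than the 60 bases of the probe.

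Gpx2, the glutathione peroxidase typical of the gut epithelium, had the largest SE of the 9 genes. It stood at 6.68 and 6.76 in Sox2 -DOX but 7.63 and 6.09 in Sox2 +DOX, at 5.92 and 6.61 in rtTA +DOX, 5.95 and 4.91 in Sox2xOct4 +DOX and 7.24 and 7.49 in Oct4 +DOX. The 2 Sox2 +DOX arrays lay on either side of both untreated ones, and the change of 0.14 ± 0.55 turned to -0.63 without Sox2 +DOX replicate 1. With Oct4 alone both arrays were above both rtTA +DOX arrays, by 1.10 ± 0.55 (2.15-fold, interval -0.15 to 2.36, limma adjusted p = 0.44), and with both factors the change was -0.83 ± 0.55 (adjusted p = 0.4).

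Nqo1 encodes a quinone reductase often used as a readout of Nrf2. It stood at 2.50 and 2.51 in Sox2 -DOX, 1.80 and 2.15 in Sox2 +DOX, 1.97 and 2.21 in rtTA +DOX, 1.19 and 0.67 in Sox2xOct4 +DOX and 1.87 and 1.57 in Oct4 +DOX. The Sox2xOct4 +DOX arrays were the lowest of the 10 and the untreated ones the highest. With both factors Nqo1 differed by -1.16 ± 0.30 (2.24-fold lower, interval -1.85 to -0.48, unadjusted p = 0.0043), with a limma adjusted p of 0.059, just short of the threshold. After normexp background correction and quantile normalization the same change was -1.01 with adjusted p = 0.039, and over the other alternatives the adjusted p ran from 0.058 to 0.22. Sox2 alone gave -0.53 ± 0.30 against Sox2 -DOX (adjusted p = 0.29) and -0.12 ± 0.30 against rtTA +DOX, and Oct4 gave -0.37 ± 0.30. The difference between the Sox2 and the double response was 0.63 ± 0.42 (adjusted p = 0.72).

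Hmox1, which encodes the inducible haem oxygenase, was the only member above its controls on every array of all 3 induced groups. Its level was -2.04 and -1.77 in Sox2 -DOX, -2.03 and -1.79 in rtTA +DOX, -0.30 and -1.16 in Sox2 +DOX, -1.21 and -0.93 in Sox2xOct4 +DOX and -1.56 and -0.49 in Oct4 +DOX. The 4 control arrays lay below the 6 others without overlap. How many of all genes split in this way was not counted. In the single comparisons the arrays did not overlap, in either direction, for 66.4% of all genes with Sox2, 52.7% with both factors and 46.3% with Oct4. The change was 1.17 ± 0.43 with Sox2 (2.25-fold, interval 0.19 to 2.15, unadjusted p = 0.025, limma adjusted p = 0.13), 0.84 ± 0.43 with both factors (1.79-fold, adjusted p = 0.28) and 0.89 ± 0.43 with Oct4 (1.85-fold, adjusted p = 0.42). None passed the correction, and the comparisons with both factors and with Oct4 share the rtTA +DOX arrays. Macrophages are known to express Hmox1: the summed level of 11 macrophage markers was 6.74 to 10.2 in Sox2 -DOX, 7.21 to 9.95 in Sox2 +DOX, 10.3 to 10.5 in rtTA +DOX, 9.58 to 13.4 in Sox2xOct4 +DOX and 6.86 to 10.3 in Oct4 +DOX. Against Sox2 -DOX, limma called 1 of the 11, Cd68, higher with Sox2 (2.32 ± 0.39, adjusted p = 0.014). Most of the others lay below 0 there, among them Itgam (-2.10 ± 0.71) and Csf1r (-0.69 ± 0.47), while Cd163 (0.56 ± 0.65) and Cd14 (0.42 ± 0.25) lay above it. The list's median change was -0.10, as was that of all genes. The part of these markers in the Hmox1 values was not tested.

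Without a test, the arrays of the groups compared did not overlap for 4 of the 9 genes with Sox2 (2 higher and 2 lower), where 66.4% of all genes did not overlap. With both factors it was 6 of 9 (1 higher and 5 lower) against 52.7% of all genes, and with Oct4 6 of 9 (2 higher and 4 lower) against 46.3%. Against rtTA +DOX 4 of 9 did not overlap in Sox2 +DOX (63% of all genes), and between the control groups 3 of 9 did not (43.2%). The median change of the 9 was 0.14 with Sox2, -0.79 with both factors and -0.04 with Oct4, beside -0.10, 0.07 and 0.01 over all genes. The difference between the Sox2 and the double response was above 0 for all 9 (0.28 to 1.59, median 0.56, with -0.09 over all genes). None of the 9 differences was called, where 0.168% of all genes were, and leaving out 1 array turned the sign for Nfe2l2 (-0.08 without Sox2xOct4 +DOX replicate 2), Txnrd1 (-0.02) and Hmox1 (-0.10, both without Sox2 +DOX replicate 1).

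**Figure D4:**
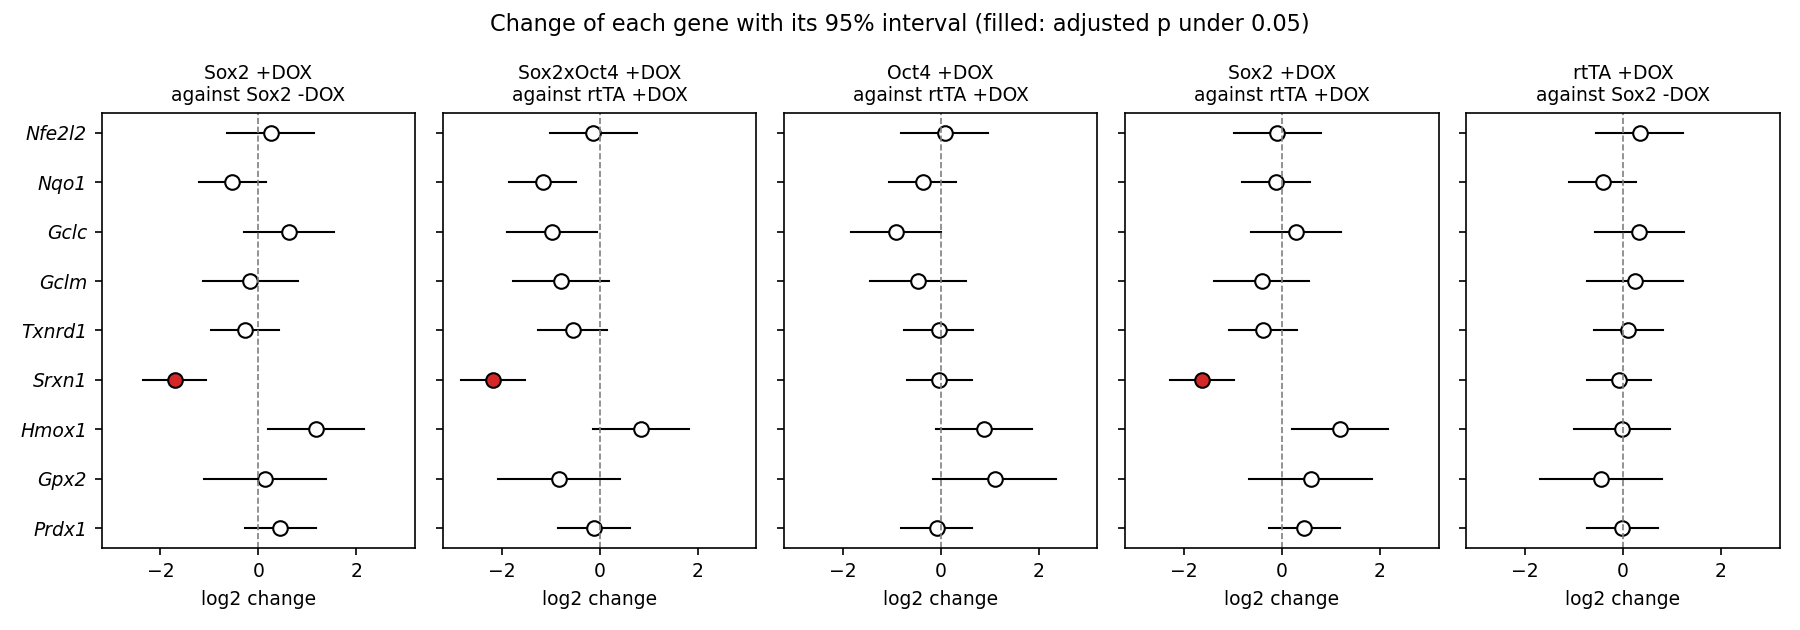
Log2 change (horizontal) of the 9 genes in the 5 comparisons, with the 95% interval from limma as a line and a filled point where the adjusted p was under 0.05. The 3 filled points are those of Srxn1, at -1.71, -2.18 and -1.63, and with Oct4 it lies at -0.03.

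Among other genes known as Nrf2 targets, several conjugating enzymes and transporters rose with Sox2. From a list of 35, limma called 9 higher and 1 lower with Sox2 against Sox2 -DOX, 6 higher and 1 lower with both factors, 0 with Oct4 (5 had an unadjusted p under 0.05), and 8 higher and 1 lower in Sox2 +DOX against rtTA +DOX. Over all genes the shares called in these comparisons were 7.83%, 6.35%, 1.01% and 8.38%, and the list's median was 0.90, 0.18, 0.20 and 0.80, in that order. Gsta4, a glutathione transferase for lipid peroxidation products, rose 38.5-fold with Sox2 (5.27 ± 0.54, adjusted p = 0.0022). With both factors it gave 0.98 ± 0.54 and was not called (limma adjusted p = 0.31). Gsta3, of the same class, rose 4.53-fold with Sox2 (2.18 ± 0.38, adjusted p = 0.016) and 19.3-fold with both factors (4.27 ± 0.38, adjusted p = 0.0017). Glutathione transferases and Cyp2a5 have near copies in the genome, so their probes may share signal with relatives.

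Aldh3a1, an aldehyde dehydrogenase abundant in cornea and stomach, was not well above background in either control group, and was at least 117-fold higher with Sox2 and at least 4.38-fold higher with both factors (adjusted p = 3.0e-04 and 0.0045). These bounds set the group mean against the lowest signal well above background on the control arrays. Cyp2a5, a cytochrome P450, was called higher with Sox2 (adjusted p = 0.016), but only 1 of the 2 untreated arrays measured it well above background, so the size of that rise is uncertain. Slc7a11, the cystine importer that supplies glutathione synthesis, rose 21.4-fold (4.42 ± 0.84, adjusted p = 0.023) and Pir 7.7-fold (2.94 ± 0.47, adjusted p = 0.014) with both factors. With Sox2 against Sox2 -DOX neither was called: Slc7a11 gave 1.09 ± 0.84 (limma adjusted p = 0.43) and Pir 0.23 ± 0.47 (adjusted p = 0.78). The gene called lower was Abcc2, an export pump of the apical membrane, with changes of -3.72 ± 0.70 with Sox2 (adjusted p = 0.02), -3.42 ± 0.70 with both factors (adjusted p = 0.03) and -4.19 ± 0.70 in Sox2 +DOX against rtTA +DOX (adjusted p = 0.013). The squamous epithelium markers had a summed level of 2.18 to 2.26 in Sox2 -DOX and 10 to 11.6 in Sox2 +DOX, with 3 of 9 called higher, but with both factors the sum was 2.38 to 3.34 against 2.34 to 4.67 in rtTA +DOX, with 2 of 9 called higher. With Sox2, Dsg3 and Sprr1a of this list were below 0 (-0.71 and -0.49, neither called), and Trp63 was not well above background in either group. Of 4 stomach markers Lipf was called higher with Sox2 and with both factors (7.37 ± 0.71, and 10.69 ± 0.71 where 1 of the 2 rtTA +DOX arrays measured it above background) and Tff2 with Sox2 against Sox2 -DOX, whereas Muc5ac (-0.04 and -0.32) and Tff1 (0.01 and -0.05) were not called. The part of these markers was not tested. Among the other Nrf2 targets, the count of 10 calls with Sox2 fell to 3 without either Sox2 -DOX array and to 2 without Sox2 +DOX replicate 1, and the 7 with both factors fell to 1 and 3 without rtTA +DOX replicates 1 and 2 and to 3 without Sox2xOct4 +DOX replicate 1.

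Of 29 other antioxidant enzymes, limma called 2 higher and 2 lower with Sox2, 2 higher and 2 lower with both factors, 0 with Oct4 (3 had an unadjusted p under 0.05) and 2 higher and 3 lower in Sox2 +DOX against rtTA +DOX. The shares called over all genes were 7.83%, 6.35%, 1.01% and 8.38% in that order, and the list's medians 0.17, 0.15, 0.12 and -0.06 beside -0.10, 0.07, 0.01 and -0.04 over all genes. Prdx4, the peroxiredoxin of the endoplasmic reticulum, rose 7.05-fold with Sox2 (2.82 ± 0.34, adjusted p = 0.0048) and 2.79-fold with both factors (1.48 ± 0.34, adjusted p = 0.044). Prdx6, a peroxiredoxin that uses glutathione, rose 5.31-fold (2.41 ± 0.35, adjusted p = 0.0086) and 3.61-fold (1.85 ± 0.35, adjusted p = 0.023). Ggt1, which breaks down glutathione outside the cell and sits on the brush border, changed by -7.41 ± 0.94 with Sox2 (adjusted p = 0.0055) and by -4.21 ± 0.94 with both factors (adjusted p = 0.039). Msra, a methionine sulfoxide reductase, changed by -1.71 ± 0.35 with Sox2 (adjusted p = 0.027), and Cat, catalase, by -1.76 ± 0.39 with both factors (adjusted p = 0.038). Sesn1, named here after its value was seen, fell by 2.03 ± 0.50 in Sox2 +DOX against rtTA +DOX (adjusted p = 0.045). The list's 4 calls with Sox2 fell to 0 without Sox2 -DOX replicate 1 and to 2 without Sox2 +DOX replicate 1, and its 4 with both factors to 0 without any one of rtTA +DOX replicate 1, rtTA +DOX replicate 2 or Sox2xOct4 +DOX replicate 1, and to 1 without Sox2xOct4 +DOX replicate 2.

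**Figure D5:**
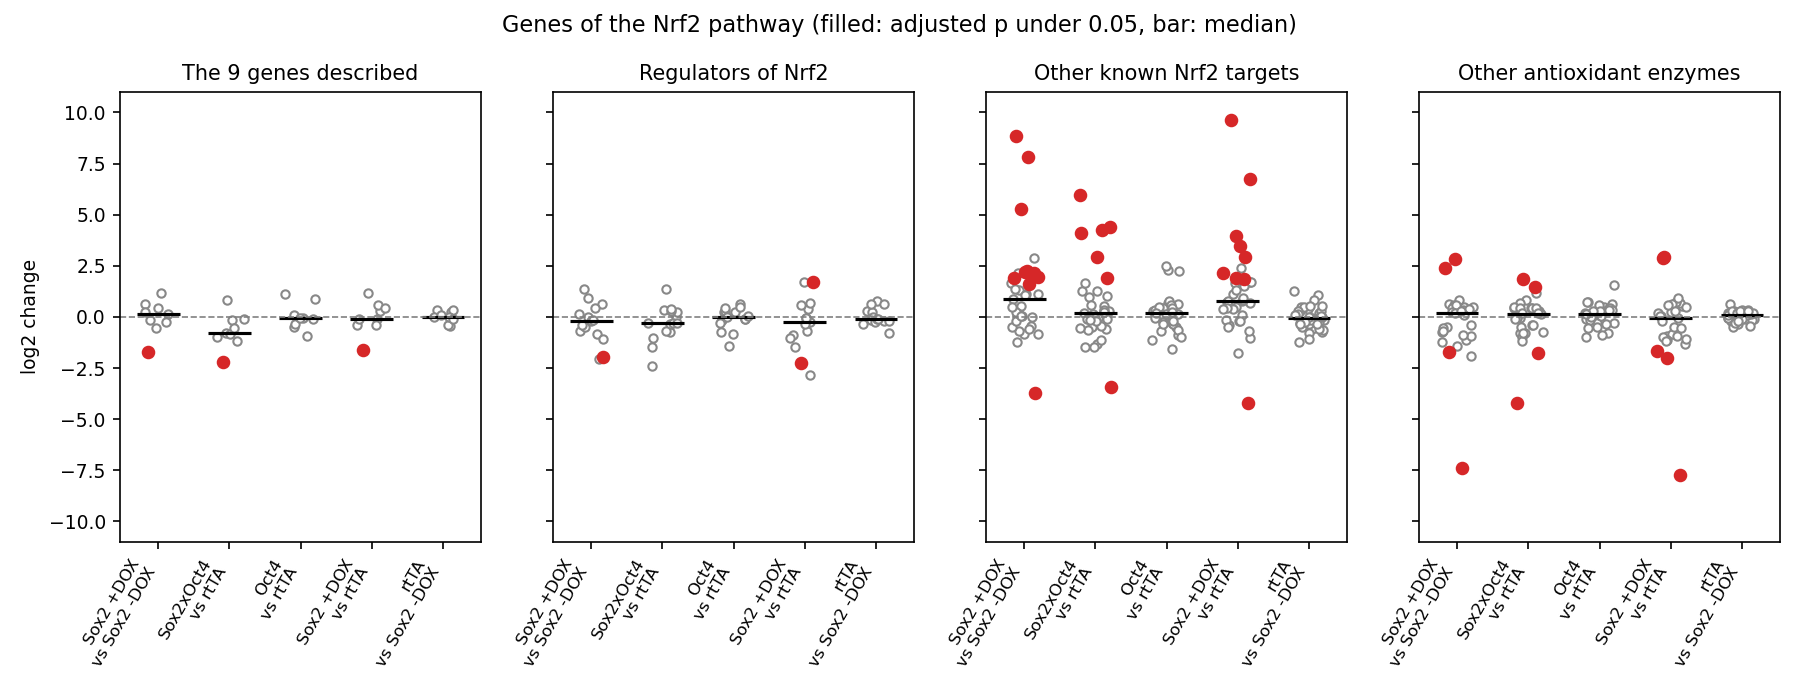
Log2 changes (vertical) of the 9 genes and of 3 lists of the pathway (15 regulators, 35 other known targets, 29 other antioxidant enzymes) in the 5 comparisons, with a filled point where the limma adjusted p was under 0.05 and a bar for the median. Among the other known targets 9 of 35 are filled above 0 with Sox2, with a median of 0.90, and none is filled with Oct4; the points of Aldh3a1 are fitted values against controls not above background.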

How the data were processed

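Cy3-labelled RNA of 10 ileum samples was read on one-colour Agilent arrays. The scanner files hold intensity values that the authors obtained with Agilent Feature Extraction, background-subtracted and not normalized between arrays, per the file headers (versions 9.5.3.1, 10.7.1.1 and 10.7.3.1 for slides 1, 2 and 3, and 9.1 per the submitters' processing notes). The authors' deposited table of normalized signal for the 4 TetON-Sox2 arrays holds 72.3 to 75.4% of probes within 1% of one ratio to the scanner signal.

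The log2 processed intensity minus each array's 75th percentile (544.2 to 1612.8) was analysed, after control and flagged spots were left out. A probe was kept where some group had it well above background on both of its arrays (28752 probes), and the brightest probe stood for each of 19045 genes. limma 3.58.1 (R 4.3.3) was fitted with 1 mean per group over all 10 arrays, and p-values were adjusted over all genes. Names came from RefSeq accessions and symbols for 80.3% of probes, with the file's name kept otherwise. Probe coordinates are in NCBI36 (mm8), and exon annotation of that build was not used here. The 9 genes and the lists were chosen with earlier results of these data known. Up to 4 called genes per list and comparison, with the smallest p, were named. Printed promoter windows are from RefSeq. On simulated data (20 runs, 200 changed genes of 19045, Sox2 +DOX against Sox2 -DOX) the fit called 1.7% of genes given a change of 1 log2 unit, 37.6% at 2 units and 71.3% at 3 units, so 2 arrays a group limit what can be called. In the real data 1492 genes were called in that comparison. The Benjamini-Hochberg cutoff on the unadjusted p loosens as more genes change. The simulated shares may thus be below what could be called in the real data. Other normalizations, filters, probe rules, blocks and left-out arrays were tried as alternatives. Each probe fitted singly was added after seeing the data.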

Additional observations from a re-analysis of the deposited data

How the results depend on the processing

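Srxn1 stayed lower with induced Sox2 under each alternative tried, with changes of -1.49 to -1.93 against Sox2 -DOX, -2.03 to -2.47 for Sox2xOct4 +DOX against rtTA +DOX and -1.40 to -2.00 for Sox2 +DOX against rtTA +DOX, but its call did not always hold. The number of the 9 genes called went from 1 to 0 against Sox2 -DOX in the fit to the compared groups alone and in the authors' normalized table, and from 1 to 0 for Sox2 +DOX against rtTA +DOX in the fit to those groups alone (fewer arrays estimate the spread). For Sox2xOct4 +DOX it went from 1 to 2 with normexp and quantile normalization, where Nqo1 was added. Leaving out 1 array gave 0 to 1 in each of the 3 comparisons, with the lone array assumed to vary like the others.

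Replicate numbers were shared across groups. The deviations of same-numbered arrays correlated at r from -0.13 to 0.27 over the 10 pairs of groups, above 0.1 in 5 (0.17, 0.20 and 0.27 among the induced groups) and below it in the other 5, so the numbers were not taken to pair the samples. With the replicate block Srxn1 remained called, at -1.71, -2.18 and -1.63 with adjusted p of 0.019, 0.011 and 0.021, and all-gene calls were 1474, 1200, 215 and 1671 where they were 1492, 1209, 192 and 1596 without it. The slide as a block could not alter the within-slide values, since it writes the same 5 group means in another form, so it tests nothing.

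Small changes reversed their sign. With normexp and quantile normalization, Nfe2l2 became 0.12 (both factors), -0.02 (Oct4) and 0.06 (Sox2 +DOX against rtTA +DOX), Prdx1 0.10 (both factors), and between the control groups Hmox1 0.04, Prdx1 0.01 and Srxn1 0.01. With quantile normalization, Nfe2l2 became 0.11 (both factors) and 0.08 (Sox2 +DOX against rtTA +DOX), Prdx1 0.06 (both factors), and between the controls Hmox1 0.03, Prdx1 0.06 and Srxn1 0.00. With the mean over probes, Nfe2l2 became -0.22 (Oct4), 0.16 (Sox2 +DOX against rtTA +DOX) and -0.08 (controls), and Srxn1 0.14 (controls). The cause was not tested.

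Leaving out each array in turn, changes whose sign turned ranged as follows. With Sox2, Nfe2l2 from -0.12 to 0.62, Gclm from -0.59 to 0.25, Txnrd1 from -0.57 to 0.04 and Gpx2 from -0.63 to 0.91. With both factors, Nfe2l2 from -0.58 to 0.33 and Prdx1 from -0.35 to 0.14. With Oct4, Nfe2l2 from -0.05 to 0.20, Txnrd1 from -0.18 to 0.10 and Prdx1 from -0.30 to 0.13. For Sox2 +DOX against rtTA +DOX, Nfe2l2 from -0.46 to 0.28, Nqo1 from -0.29 to 0.06, Gclc from -0.02 to 0.61 and Gpx2 from -0.18 to 1.36. Between the control groups, Gclc from -0.06 to 0.72, Gclm from -0.17 to 0.66, Txnrd1 from -0.03 to 0.25, Srxn1 from -0.25 to 0.09, Hmox1 from -0.14 to 0.13 and Prdx1 from -0.22 to 0.21. For the difference of responses, Nfe2l2 from -0.08 to 0.83, Txnrd1 from -0.02 to 0.59 and Hmox1 from -0.10 to 0.76.

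Over all genes, calls with Sox2 were 625 in the fit to the 2 groups alone, 692 in the authors' table and 933 without the filter on dim probes (1492 as reported), and 161 to 1728 with 1 array left out. With both factors they were 473 and 776 in the fit to the 2 groups alone and without the filter (1209 as reported), and 105 to 1076 with 1 array left out. With Oct4 they were 111 with normexp and quantile normalization together and 272 with quantile normalization alone (192 as reported) and 35 to 193 with 1 array left out, and for Sox2 +DOX against rtTA +DOX 935 in the fit to the 2 groups alone and 1045 without the filter (1596 as reported) and 195 to 1679. Normexp and quantile normalization together moved the split with Sox2 from 578 higher of 1492 to 945 higher of 1915 (720 of 1550 with quantile normalization alone), and that of Sox2 +DOX against rtTA +DOX from 616 higher of 1596 to 946 of 1906 (766 of 1696). Of the 9 genes' changes under the alternatives, 590 kept direction and call, 46 reversed, 11 lost and 1 gained the call. The 590 include those with the slide as a block, which could not move. With the replicate block, the fit to the compared groups alone, no filter or probes fitted singly, the change could not move either, only its call. The same holds for the mean over probes for the 7 genes with 1 probe, so these directions were fixed in advance. Only Srxn1 had a call to lose, so most of the 590 are uncalled changes that stayed uncalled.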
